A study of Drosophila melanogaster with 58 samples.

Results

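The genes described here belong to the Hippo pathway and to its Fat branch, and their RNA was followed through wing metamorphosis and in wings with transgenes that the study used to delay or bypass the exit from the cell cycle. They are *hpo*, *wts*, *yki*, *ex*, *Mer*, *kibra*, *ft*, *ds*, *fj* and *d* (*dachs*). They were chosen by FlyBase symbol, matched through an annotation to the FlyBase identifiers that the count files list, and the matching rule uses no measured value. Of the 10 genes listed, 9 were found among the 17559 genes counted. The identifier that the annotation gives for *ds*, the gene for the cadherin Dachsous, is not one of those in the files, so *ds* was not analysed here.

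RNA was sequenced from wings labelled female, with 2 libraries in each of 12 groups. The transgenic groups were E2F wings, which express the transcription factor subunits E2F1 and DP, E2F + CycD wings, which express these together with CycD and Cdk4, and flippase controls, each at 24 h and 44 h after puparium formation (APF). All 3 transgenic genotypes carried hs-FLP, the flip-out driver tub>CD2>GAL4, UAS-GFP and tub-gal80TS. They were given a heat shock as larvae and a later shift to a permissive temperature. The controls thus share the driver, the GFP and the temperature steps, and the GAL4 acts only in cells where the flip-out took place. The hours of these wings are equivalents that the authors calculated for a standard temperature. The wild-type groups were the late larva (L3) and 6, 18, 24, 36 and 44 h APF. The labels give their genotype as wildtype with no strain, and nothing in the labels or methods says that the 2 libraries of a group came from separate pools of animals, so the p-values below measure the spread between these libraries. Other assays of the study were not analysed here.

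The Hippo pathway limits organ growth in flies. The kinase Hpo, with its partner Sav, activates the kinase Wts, which with Mats phosphorylates the co-activator Yki and keeps it out of the nucleus, whereas free Yki joins the DNA-binding protein Sd to switch on growth and survival genes such as *Diap1* and *CycE*. The cortical proteins Ex, Mer and Kibra promote the kinases, and the genes *ex*, *Mer* and *kibra* are themselves known Yki targets in larval wing discs, which gives a feedback loop. In the Fat branch the cadherin Ft is bound by the cadherin Ds, the Golgi kinase Fj modifies both, and the myosin-like protein Dachs acts below Ft to lower the amount of Wts.

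Levels are CPM, the reads of a gene relative to all reads on genes in its library, after TMM scaling, where TMM is a factor per library that makes most genes comparable, and the wild-type and transgenic libraries were scaled as separate sets of 12. A gene passed the test when edgeR's quasi-likelihood F-test gave a Benjamini-Hochberg adjusted p under 0.05 over all genes tested, which were 8669 in the wild-type fit and 9636 in the transgenic fit. All 9 matched genes were kept by the low-count filter in both fits.

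The wild-type libraries held 1900774 to 7512920 reads on genes and the transgenic ones 11201219 to 16332737, so the transgenic values are the more precise. The common biological coefficient of variation was 20.25% and 16.44% in the wild-type and transgenic fits. The labels say female, but *roX1*, an RNA of male dosage compensation, had 194.1 CPM in L3 replicate 1 against 9.0 CPM in L3 replicate 2, and 103.0 and 49.3 CPM at 18 h. Over the transgenic libraries it had at most 4.64 CPM. The summed level of 5 wing epithelium markers was 375 to 829 CPM in wild-type and 1389 to 2200 CPM in transgenic libraries, which were scaled separately, with no marker at 0 in both libraries of any group. The summed level of 5 muscle and myoblast markers moved with stage, at 93.5 to 107.7 CPM in L3 wings and 870 to 1422 CPM at 36 and 44 h. In transgenic wings at 44 h the muscle sum was 2191.5 and 2399.9 CPM in E2F wings and 1899 and 1686 CPM in E2F + CycD wings, against 1636 and 3210 CPM in control wings, which overlap. The summed level of 3 fat body markers was uneven between replicates in E2F + CycD wings at 24 h (290.2 and 35.7 CPM), and it was 104 and 510 CPM in wild-type wings at 6 h against 3.06 and 3.19 CPM at L3. The part of muscle, fat body or male tissue in the changes below was not tested. In whole wings, fewer cells of a type and less RNA per cell cannot be told apart.

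*hpo* was the member with the clearest changes in time (FBgn0261456, dm6 2R:19493996-19496856, minus strand). Its levels in replicates 1 and 2 were 48.7 and 54.0 CPM at L3, 14.2 and 12.3 CPM at 6 h, 86.1 and 67.8 CPM at 18 h, 58.1 and 48.1 CPM at 24 h, 30.8 and 22.9 CPM at 36 h, and 13.5 and 15.1 CPM at 44 h. The gene for the first kinase of the cascade was therefore low at the start of pupal life, high at 18 h and low again at the end, and the 6 h and 44 h libraries were the only ones under 20 CPM. The 6 h values rest on 68 and 40 reads. Against L3, *hpo* was lower at 6 h by a log2 fold change of -1.94 (SE 0.23, adjusted p = 3.12e-05, n = 2 and 2, edgeR), with no overlap between libraries. At 18 h it rose by 2.53 over 6 h (SE 0.23, adjusted p = 3.26e-06), a 5.78-fold difference and the largest change between neighbouring stages in any of the 9 members. It fell again at 36 h against 24 h by 0.99 (SE 0.22, adjusted p = 0.00372) and at 44 h against 36 h by 0.91 (SE 0.23, adjusted p = 0.0106). The fall at 36 h missed the threshold without the second 36 h library (log2 fold change -0.79, adjusted p = 0.0506), and the fall at 44 h missed it without the first 36 h library or either 44 h library (adjusted p = 0.0523 to 0.0965). The fall over both steps, 44 h against 24 h, was -1.90 (SE 0.23, adjusted p = 2.32e-05) and stayed past the threshold in every alternative, as did the changes at 6 h and 18 h. Without L3 replicate 1, the library with high *roX1*, the 6 h value was -2.02 (adjusted p = 0.000463). The exons of *hpo* overlap those of *Rep* on the other strand over 4.636% of their length, and *Rep* had 11.1 to 22.8 CPM in the 12 wild-type libraries.

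*kibra* encodes a scaffold that works with Mer and Ex above the kinases (FBgn0262127, dm6 3R:14697689-14724261, minus strand). It had 60.0 and 40.1 CPM at L3, 87.3 and 96.1 CPM at 6 h, 208 and 215 CPM at 18 h, 362 and 281 CPM at 24 h, 254 and 373 CPM at 36 h, and 309 and 291 CPM at 44 h. The libraries of the first 4 stages did not overlap between neighbours, and those of 24, 36 and 44 h did. The rise at 6 h over L3 was 0.86 (SE 0.25, adjusted p = 0.0148), and it missed the threshold without L3 replicate 2 (0.61, adjusted p = 0.147), without 6 h replicate 2 (0.74, adjusted p = 0.0525) and with library totals alone (0.28, adjusted p = 0.343). The rise at 18 h over 6 h was 1.21 (SE 0.25, adjusted p = 0.00201) and passed in every alternative. The step at 24 h over 18 h, 0.61 (SE 0.25, adjusted p = 0.127), did not pass. Between the highest and lowest stage the fitted difference was 2.68, a 6.39-fold range and the widest among the members (adjusted p over all stages = 6.36e-06).

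*wts*, the gene for the kinase that acts on Yki (FBgn0011739, dm6 3R:30789625-30806619, minus strand), varied less. It had 95.8 and 72.3 CPM at L3, 84.6 and 81.0 CPM at 6 h, 62.8 and 64.7 CPM at 18 h, 128 and 99.9 CPM at 24 h, 95.9 and 157 CPM at 36 h, and 86.0 and 87.5 CPM at 44 h. The 18 h libraries were the lowest, and those of 24 h and 36 h overlapped. At 24 h it was higher than at 18 h by 0.85 (SE 0.25, adjusted p = 0.0407), a call that was lost without either 18 h library or without 24 h replicate 1 (adjusted p = 0.186 to 0.273). The test over all stages gave adjusted p = 0.0236 for *wts* and was also lost without either 18 h library or the second 36 h library, at adjusted p = 0.0502 to 0.0892.

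*yki*, the co-activator (FBgn0034970, dm6 2R:24065975-24068485, minus strand), held a narrow range of 57.0 to 70.5 CPM in the 10 libraries up to 36 h and had 92.6 and 91.6 CPM at 44 h. Both 44 h libraries were above every other. At 44 h it rose by 0.68 over 24 h (SE 0.18, adjusted p = 0.0071), a 1.60-fold difference that still passed with each library left out in turn. It did not pass with scaling by library totals alone, where it was 0.03 (adjusted p = 0.894). That scaling moved the median of all genes by -0.64 in this comparison, so *yki* was 0.71 above the median gene there.

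*ex* encodes the FERM protein Expanded (FBgn0004583, dm6 2L:431227-448701, plus strand). Its levels were 163 and 176 CPM at L3, 206 and 129.7 CPM at 6 h, 250 and 149.9 CPM at 18 h, 191 and 143 CPM at 24 h, 125 and 90.4 CPM at 36 h, and 307 and 269 CPM at 44 h. The libraries of the first 4 stages overlapped, the 36 h ones were under all others and the 44 h ones above all others. At 44 h *ex* rose by 1.42 over 36 h (SE 0.30, adjusted p = 0.00365), and without the second 36 h library the change was 1.20 with adjusted p = 0.0556. Against 24 h the rise of 0.78 (adjusted p = 0.0449) was lost without any 1 of the 4 libraries compared (adjusted p = 0.0618 to 0.23). The test over all stages (adjusted p = 0.0153) was lost without the second 36 h library or either 44 h library (adjusted p = 0.0531 to 0.0937). Exons of *crq* lie on the other strand over 6.715% of the exon length of *ex*, and *crq* had 23.5 to 69.0 CPM.

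*Mer*, the fly Merlin gene (FBgn0086384, dm6 X:19689697-19693500, minus strand), ran from 17.6 CPM in a 36 h library to 31.7 CPM in a 24 h library. All neighbours in the order of its stage means overlapped except the lowest, 36 h, which lay under the rest. The test over the stages gave adjusted p = 0.0943, so no stage change was called, and without 24 h replicate 2 it gave adjusted p = 0.0383.

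**Figure D1:**
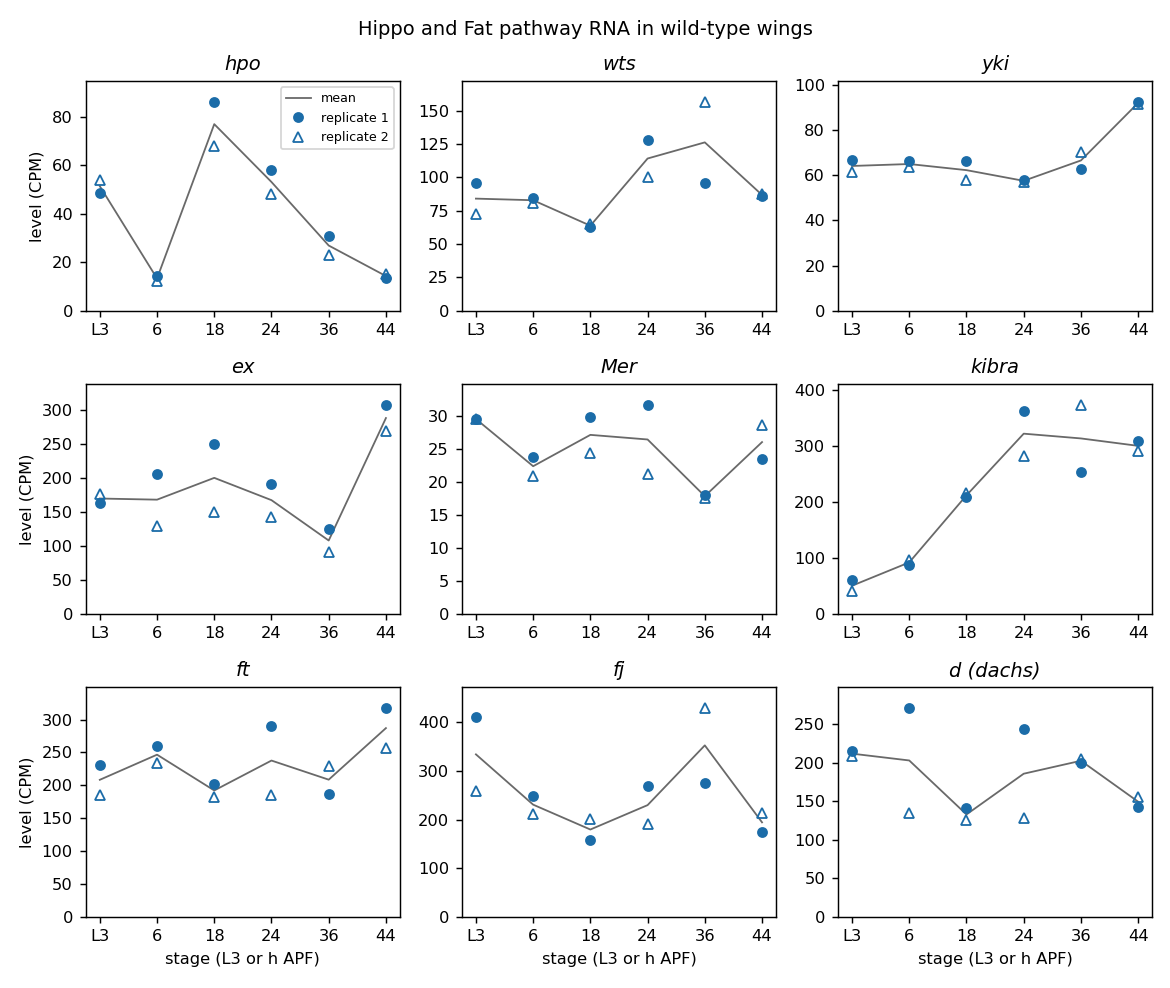
Levels in CPM (vertical axes, from 0) of the 9 members in wild-type wings by stage (horizontal axes, L3 or h APF), with filled circles for replicate 1, open triangles for replicate 2 and lines through the means of 2 libraries. *hpo* dips to 12.3 and 14.2 CPM at 6 h and returns near that level at 44 h, *kibra* passes the test upward at 6 h and 18 h but not at 24 h against 18 h, and *Mer*, *ft* and *d* show no stage change past the test.

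In the Fat branch, *ft*, the cadherin that receives the signal (FBgn0001075, dm6 2L:4198404-4221796, minus strand), ran from 182 CPM in an 18 h library to 317 CPM in a 44 h library. Every neighbouring pair in its order of stage means overlapped (adjusted p over all stages = 0.269). The myosin gene *d* (FBgn0262029, dm6 2L:8466817-8488671, plus strand) ran from 125 to 271 CPM, and its replicates at 6 h (271 and 135 CPM) and 24 h (243 and 128 CPM) lay far apart. Neither gene passed in the test over the stages (adjusted p = 0.303 for *d*), although *d* did without the second 6 h library (adjusted p = 0.0392). The signed difference between replicates went with exon length at 24 h. Over 9752 genes the rank correlation of exon length with the log2 difference of 24 h replicate 1 over replicate 2 was 0.414. The genes in the top decile of exon length had a median difference of 0.48. The same correlation was 0.380 at 18 h and 0.268 at 6 h, with median differences of 0.16 and 0.22 in that decile.

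*fj*, the gene for the Golgi kinase (FBgn0000658, dm6 2R:18232761-18236311, plus strand), had 410.4 and 258 CPM at L3, 249 and 212 CPM at 6 h, 157 and 202 CPM at 18 h, 268 and 191 CPM at 24 h, 276 and 429 CPM at 36 h, and 175 and 213 CPM at 44 h. Its L3 and 36 h libraries were above the rest except 1 library of 24 h. At 44 h it fell by 0.86 against 36 h (SE 0.29, adjusted p = 0.0448), and this call was lost without the second 36 h library (-0.51, adjusted p = 0.334) or either 44 h library (adjusted p = 0.105 and 0.228). Its test over all stages (adjusted p = 0.0309) was lost without 1 of 5 libraries in turn, the first of L3, either of 18 h, the second of 36 h or the first of 44 h (adjusted p = 0.0526 to 0.0912).

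Read across stages, 6 of the 9 members (*hpo*, *kibra*, *wts*, *yki*, *ex* and *fj*) passed the test for any difference, where 83.5% of all genes did, and 3 of them (*hpo*, *kibra* and *ex*) also had a largest fitted difference above 1 on the log2 scale, where 74.7% of all genes did. The median largest difference was 0.98 over the 9 members and 1.76 over all genes. For *yki* that test (adjusted p = 0.0316) was lost without either L3 library, the second of 18 h or 24 h, or either 44 h library (adjusted p = 0.0508 to 0.188). At 6 h against L3, 2 members passed (*kibra* up, *hpo* down) against 45.8% of all genes, and 1 of them changed by more than 1 against 33.5%. At 18 h against 6 h, 2 passed, both up and both by more than 1, against 45.2% and 32.6% of all genes. At 24 h against 18 h, 1 passed (*wts*, up) and none changed by more than 1, against 12.9% and 9.24%.

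Later in pupal life the counts stayed small. At 36 h against 24 h, 1 member passed (*hpo*, down) and none by more than 1, against 37.1% and 26.4% of all genes. At 44 h against 36 h, 3 passed, *ex* up by more than 1 and *fj* and *hpo* down, against 28.6% of all genes and 20.3% by more than 1. At 44 h against 24 h, *ex* and *yki* passed upward and *hpo* downward, of which *hpo* changed by more than 1, against 47.9% and 35.4% of all genes. With library totals as the only scaling the directions differed, since all 5 members that then passed at 6 h against L3 and all 6 at 44 h against 24 h were down. That scaling moved the median of all genes by -0.57 and -0.64 in these comparisons. Relative to the median gene, the members that passed stood at -1.97 (*hpo*) to -0.01 (*yki*) and at -1.87 (*hpo*) to -0.03 (*Mer*). The share of members that passed was under the share of all genes in 6 of the 7 wild-type tests, the exception being 44 h against 36 h.

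Levels were also divided by exon length in kilobases. In wild-type wings *fj* was the highest member at L3 at a mean of 94.1 CPM per kb. It was followed by *yki* at 42.1, *d* at 34.7 and *ex* at 25.4 CPM per kb. *kibra* and *Mer* were the lowest at L3, at 8.70 and 8.69 CPM per kb. By 44 h the order had changed, with *yki* at 60.4, *fj* at 54.7, *kibra* at 52.2 and *ex* at 43.2 CPM per kb, and *hpo* lowest at 5.09 CPM per kb. The kinase genes thus lay under the co-activator gene at both ends of the wild-type series. *wts* had 14.5 CPM per kb at L3 and 14.96 CPM per kb at 44 h. In control wings at 44 h the order was different. There *ex* had 195.5, *kibra* 181.0, *fj* 104.5 and *yki* 103.6 CPM per kb, with *wts* at 48.7 and *hpo* at 4.08. The order of genes thus depends on the library set. The ratio of control to wild type rose with exon length, as given below.

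Partners and targets of the pathway were counted in the same way. Of 40 tested genes on the lists of core partners, Yki partners, upstream regulators, STRIPAK phosphatase subunits, Fat branch partners and Yki targets, 31 passed over the stages, where 83.5% of all genes did, with a median largest difference of 1.19 against 1.76 over all genes. All 8 Yki partners passed, with a median of 1.73, near that of all genes. All 5 tested Yki targets passed as well, with a median of 1.88. *Rassf*, which in flies holds Hpo inactive, had the same direction as *hpo* at both early steps, -2.60 at 6 h against L3 (SE 0.24, adjusted p = 3.43e-06) and 2.77 at 18 h against 6 h (SE 0.24, adjusted p = 1.87e-06). *Hipk*, a kinase that promotes Yki activity, went the other way, 1.57 at 6 h (adjusted p = 0.000198) and -2.19 at 18 h (adjusted p = 1.66e-05). *sd*, the DNA-binding partner of Yki, rose at 18 h over 6 h by 1.57 (adjusted p = 0.000123). At 44 h against 24 h *sd* was at -1.77 (adjusted p = 3.72e-05), *Rassf* at -1.92 and *jub*, an inhibitor of Wts, at -1.71. In that comparison *Tgi*, a co-repressor that binds Sd, rose by 1.41 (adjusted p = 8.63e-05), *Wbp2*, a Yki cofactor, by 1.82 and *crb*, an apical protein that binds Ex, by 1.39.

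In the transgenic wings the genes carried by the transgenes were checked first. *E2f1* had 3787 and 3747 CPM in E2F wings and 1338 and 908 CPM in E2F + CycD wings at 24 h, against 432 and 473 CPM in control wings. *CycD* had 1771 and 1826 CPM in E2F + CycD wings at 44 h, against 27.1 and 27.4 CPM in control wings. *Dp* was far higher in E2F wings (1093 and 1251 CPM at 44 h) than in E2F + CycD wings (86.1 and 90.7 CPM), against 65.4 and 57.8 CPM in control wings. The 2 genotypes thus differ in the amount of *E2f1* and *Dp* RNA as well as in CycD and Cdk4, and these cannot be told apart in the comparisons below.

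At 24 h the only member called was *ft*, in E2F wings. *ft* had 706 and 712 CPM in E2F wings and 1032 and 1062 CPM in control wings, with no overlap, and fell by 0.56 (SE 0.13, adjusted p = 0.0103). This call was lost without any 1 of the 4 libraries, at adjusted p = 0.0501 to 0.0837, and with library totals alone (-0.39, adjusted p = 0.0543). It was the only member of 9 to pass in E2F wings, none changed by more than 1, and 23.7% and 11.9% of all genes did so. In E2F + CycD wings no member passed and none changed by more than 1, against 14.3% and 7.62% of all genes. At an unadjusted p under 0.05 stood *ft* (-0.36) and *kibra* (-0.44), and DESeq2 called 1 member. *ft* had 803 and 833 CPM in E2F + CycD wings at 24 h, under both control libraries. *kibra* had 545 and 676 CPM in E2F wings and 544 and 671 CPM in E2F + CycD wings, against 736 and 917 CPM in control wings, so the libraries did not overlap although neither difference passed (adjusted p = 0.118 and 0.146). *ex* had 679 and 898 CPM in E2F wings, against 1003 and 1278 CPM in control wings, also with no overlap. Its difference of -0.53 (SE 0.22, adjusted p = 0.104) was close in size to that of *ft*, and it passed without the count filter (adjusted p = 0.027), by DESeq2 (adjusted p = 0.0421) and with only the compared groups (adjusted p = 0.0306). *hpo*, *yki* and *Mer* also had no overlap in E2F wings. They had 45.2 and 44.6, 98.8 and 105.8, and 47.2 and 43.1 CPM, against 58.7 and 59.6, 116.0 and 120.9, and 56.2 and 51.6 CPM. In E2F + CycD wings *hpo* and *yki* had none either. By edgeR they did not pass for E2F (adjusted p = 0.118, 0.232 and 0.192). With only the compared groups *hpo* (-0.38, adjusted p = 0.0152) and *kibra* (-0.42, adjusted p = 0.0422) passed. The share of all genes with no overlap was not counted. Several marker sums also differed at 24 h with no overlap, in both directions. The muscle sum was 367 and 330.5 CPM in E2F wings and 331 and 307 CPM in E2F + CycD wings, against 489.5 and 480.2 CPM in control wings. The sum of 4 neuron markers was 167 and 159 CPM in E2F wings and 179 and 180.1 CPM in E2F + CycD wings, against 207 and 198 CPM in control wings, and the part of either in the differences of *ft*, *kibra* and *ex* was not tested.

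At 44 h the largest differences were in the kinase gene *wts* and the scaffold gene *kibra*, both lower in E2F and in E2F + CycD wings. *wts* had 127 and 138 CPM in E2F wings and 89.5 and 69.1 CPM in E2F + CycD wings, against 258 and 307 CPM in control wings. Both control libraries were well above all 4 others, and the E2F libraries above both E2F + CycD libraries. Relative to control the log2 fold change was -1.09 with E2F (SE 0.17, adjusted p = 0.000421) and -1.83 with E2F + CycD (SE 0.18, adjusted p = 6.39e-06), which is 0.469 and 0.281 of the control level. Both passed in every alternative, and the value ranged from -1.19 to -0.48 and from -2.02 to -0.85. *kibra* had 452 and 540 CPM in E2F wings and 441 and 506 CPM in E2F + CycD wings, against 1134.5 and 947 CPM in control wings. The 2 genotypes overlapped with each other and not with the controls, at -1.07 (SE 0.19, adjusted p = 0.000944) and -1.14 (SE 0.19, adjusted p = 0.000439).

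The control libraries of 44 h stand apart in scaling, with TMM factors of 0.5853 and 0.5647 against 0.838 to 1.159 in the other 44 h libraries. With library totals as the only scaling the median of all genes moved at 44 h by 0.61 for E2F and 0.98 for E2F + CycD. On that scale *kibra* missed the threshold in both genotypes (-0.47, adjusted p = 0.0519, and -0.15, adjusted p = 0.486), while relative to the median gene *kibra* stood at -1.01 and -1.07 and *wts* at -1.02 and -1.77. The statements on direction at 44 h are therefore relative to the typical gene.

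At 44 h *wts*, *kibra*, *ft* and *yki* all passed downward in both genotypes. Of these, *wts* and *kibra* hold matches to the letters marked in capitals below, and *ft* and *yki* hold none. The start regions of *wts* and *kibra* are shown for that reason. Each is 250 bases before to 50 bases after the annotated start, in dm6 as held in the RefSeq genome assembly, read 5′ to 3′ on the strand of the gene. Capitals mark the DRE, the letters TATCGATA, a palindrome bound in flies by the factor Dref. The first runs over chr3R:30806570-30806869 and the second over chr3R:14724212-14724511, both on the minus strand.
wts: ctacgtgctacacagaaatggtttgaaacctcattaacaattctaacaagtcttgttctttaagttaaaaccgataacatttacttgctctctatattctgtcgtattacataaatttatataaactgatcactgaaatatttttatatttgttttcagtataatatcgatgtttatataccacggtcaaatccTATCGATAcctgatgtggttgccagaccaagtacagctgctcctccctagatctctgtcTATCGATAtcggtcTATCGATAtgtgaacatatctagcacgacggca
kibra: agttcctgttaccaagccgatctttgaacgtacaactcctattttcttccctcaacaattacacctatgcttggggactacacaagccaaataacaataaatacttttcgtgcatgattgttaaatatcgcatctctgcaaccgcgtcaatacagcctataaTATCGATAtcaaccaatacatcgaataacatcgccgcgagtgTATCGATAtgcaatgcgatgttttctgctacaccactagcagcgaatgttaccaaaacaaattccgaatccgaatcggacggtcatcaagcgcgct

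*wts* holds 3 DRE matches, which begin at -56, 3 and 17 bases from the start, and *kibra* holds 2, at -88 and -46. Among the other members *hpo* holds 1, and the remaining 7 of the 10 genes hold none in this window. Of 13968 promoters of protein-coding genes, 9.36% hold at least 1 match, 0.952% at least 2 and 0.0788% at least 3. The E2F motifs TTTCGCGC, TTTGGCGC and TTTCCCGC, searched on both strands, occur in 4.83% of promoters and in no member, and the Sd motif ACATTCC occurs in 2.95% of promoters and in no member. A match here is a run of letters and not a measured binding site. *hpo*, with its 1 match, was at 0.34 and 0.56 at 44 h in E2F and E2F + CycD wings. A part of the DRE in any of these changes was not tested.

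**Figure D2:**
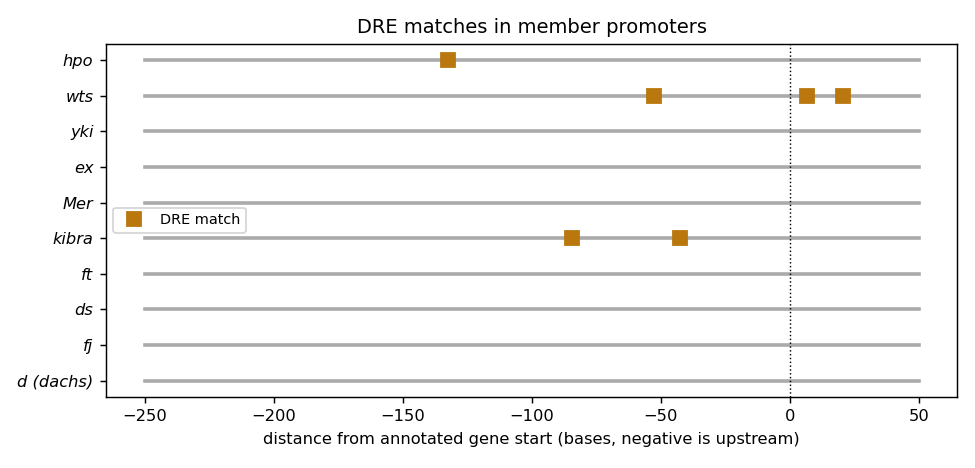
Positions of DRE matches (squares) along the start region of each of the 10 genes (grey lines), with the distance from the annotated gene start in bases on the horizontal axis and the start as a dotted line. *wts* has 3 matches, *kibra* 2 and *hpo* 1, and the others have none in this window.

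The co-activator gene *yki* had 114 and 124 CPM in E2F wings and 120 and 134 CPM in E2F + CycD wings at 44 h, against 161 and 155 CPM in control wings, and both control libraries were the highest. It was at -0.41 in E2F wings (SE 0.12, adjusted p = 0.02) and at -0.32 in E2F + CycD wings (SE 0.12, adjusted p = 0.0445), but at 0.20 and 0.67 with library totals as the only scaling. The first call was lost without either control library or E2F replicate 1 (adjusted p = 0.0515 to 0.135), and the second without any 1 of the 4 libraries compared (adjusted p = 0.0694 to 0.252).

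The Fat branch genes moved in different directions at 44 h. *ft* had 641 and 657 CPM in E2F wings and 565 and 537 CPM in E2F + CycD wings, against 832 and 942 CPM in control wings, with no overlap between any of the 3 groups. Its log2 fold changes were -0.45 (SE 0.13, adjusted p = 0.0189) and -0.69 (SE 0.13, adjusted p = 0.00121), but 0.16 and 0.30 with library totals as the only scaling. The E2F call was lost without control replicate 2 or either E2F library (adjusted p = 0.0598 to 0.103).

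*d* and *fj*, which encode proteins that act against or modify Ft, stood higher. *d* had 433 and 360 CPM in E2F wings and 362 and 244 CPM in E2F + CycD wings, against 196 and 250 CPM in control wings. The E2F libraries were above both control libraries, and the E2F + CycD libraries overlapped with them. The rise in E2F wings was 0.83 (SE 0.21, adjusted p = 0.00941), lost without control replicate 1 (0.69, adjusted p = 0.0626) or E2F replicate 1 (0.70, adjusted p = 0.0662). In E2F + CycD wings *d* was at 0.45 (adjusted p = 0.104), and it passed without control replicate 2 (adjusted p = 0.0302) or E2F + CycD replicate 2 (adjusted p = 0.0277). *fj* had 555 and 499 CPM in E2F wings and 592 and 475 CPM in E2F + CycD wings, against 312 and 430 CPM in control wings, with both transgene genotypes above the controls in every library. Its rises of 0.51 (SE 0.19, adjusted p = 0.0498) and 0.52 (SE 0.19, adjusted p = 0.0356) were each lost without control replicate 1 (adjusted p = 0.263 and 0.191), the first also without either E2F library (adjusted p = 0.0669 and 0.189) and the second without E2F + CycD replicate 1 (adjusted p = 0.222).

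*hpo* was low in every 44 h library, at 15.6 and 13.1 CPM in E2F wings and 14.1 and 19.7 CPM in E2F + CycD wings, against 9.65 and 13.2 CPM in control wings, which rest on 79 and 102 reads. It rose in E2F + CycD wings by 0.56 (SE 0.20, adjusted p = 0.0324), a call lost without control replicate 1 or E2F + CycD replicate 2 (adjusted p = 0.201 and 0.25), and was at 0.34 in E2F wings (adjusted p = 0.21). *ex* and *Mer* did not pass at 44 h in either genotype with TMM scaling and no block. *ex* had 923 and 1175 CPM in E2F wings and 864 and 1034 CPM in E2F + CycD wings, against 1205 and 1403.5 CPM in control wings. The differences for *ex* were -0.31 (approximate 95% interval -0.75 to 0.12) and -0.46 (-0.89 to -0.03, adjusted p = 0.104). The intervals were taken from the SE by a normal curve. They are narrower than the F-test allows, so an interval without 0 is not a passed test. *Mer* ranged from 30.7 to 40.1 CPM over the 6 libraries.

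Counted together at 44 h, 6 of 9 members passed in E2F wings, *d* and *fj* up and *wts*, *kibra*, *ft* and *yki* down, where 40.2% of all genes passed. Of these, 2 (*wts* and *kibra*) changed by more than 1, against 23.1% of all genes. In E2F + CycD wings 6 passed, *hpo* and *fj* up and the same 4 genes down, where 51.2% of all genes passed, and *wts* and *kibra* again changed by more than 1, against 31.3%. The median log2 fold change of the members was -0.31 and -0.32, against -0.07 and -0.06 over all genes. With only the compared groups in the fit, 3 members passed in each comparison. With library totals alone the directions were different, with *hpo*, *Mer*, *fj* and *d* up and *wts* down in E2F wings (5 passed), and *yki*, *hpo*, *ex*, *Mer*, *fj* and *d* up and *wts* down in E2F + CycD wings (7 passed). Both comparisons use the same control libraries. Marker sums of 3 other cell types were also lower in both genotypes at 44 h, with no overlap. The 4 neuron markers summed to 183 and 199 CPM in E2F wings and 173 and 175.5 CPM in E2F + CycD wings, against 272 and 308 CPM in control wings. The 1 tracheal marker had 69.5 and 69.2 CPM in E2F wings and 80.03 and 80.6 CPM in E2F + CycD wings, against 106 and 125 CPM in control wings. The 5 hemocyte markers summed to 56.8 and 76.2 CPM in E2F wings and 74.1 and 51.5 CPM in E2F + CycD wings, against 83.8 and 113 CPM in control wings. The fat body sum lay the other way in E2F wings, at 327 and 227 CPM against 130.2 and 219.9 CPM in control wings, and the muscle sum overlapped between genotypes. No marker of these lists was at 0 in both libraries of a 44 h group, and their part in the lower *wts*, *kibra*, *ft* and *yki* was not tested.

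**Figure D3:**
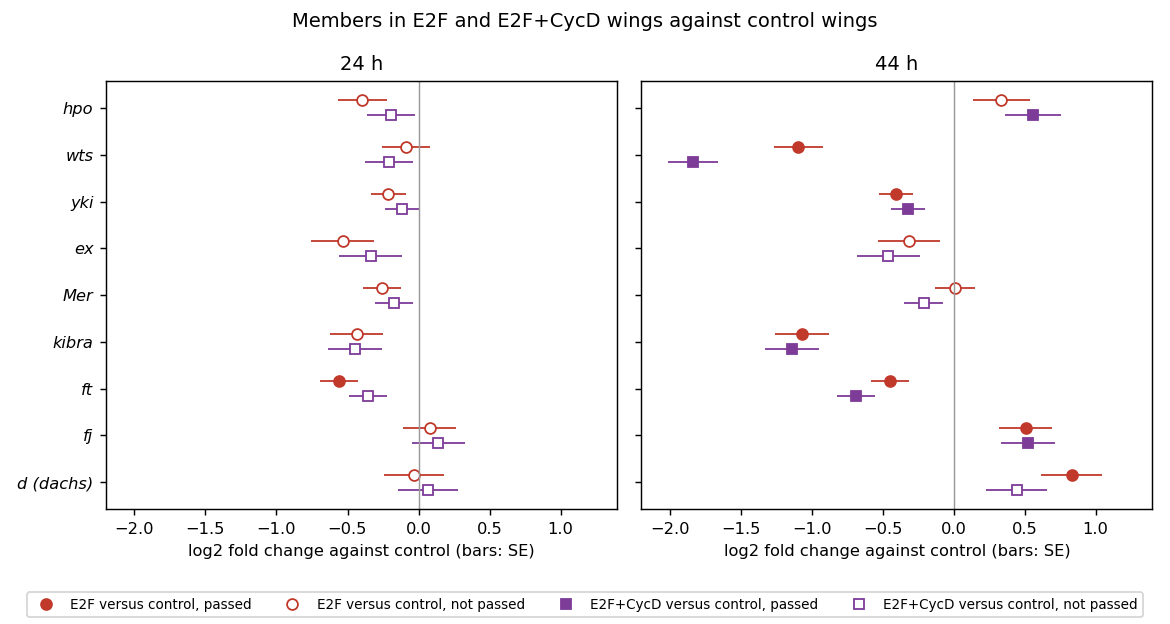
Log2 fold changes (horizontal axes) of the 9 members in E2F (circles) and E2F + CycD wings (squares) against control wings at 24 h (left) and 44 h (right), with bars of 1 SE and filled symbols where the test passed. At 24 h *ft* in E2F wings is the only filled symbol, and at 44 h *wts* lies farthest from 0, at -1.09 and -1.83, while *yki* and *ft* turn positive with library totals as the only scaling.

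**Figure D4:**
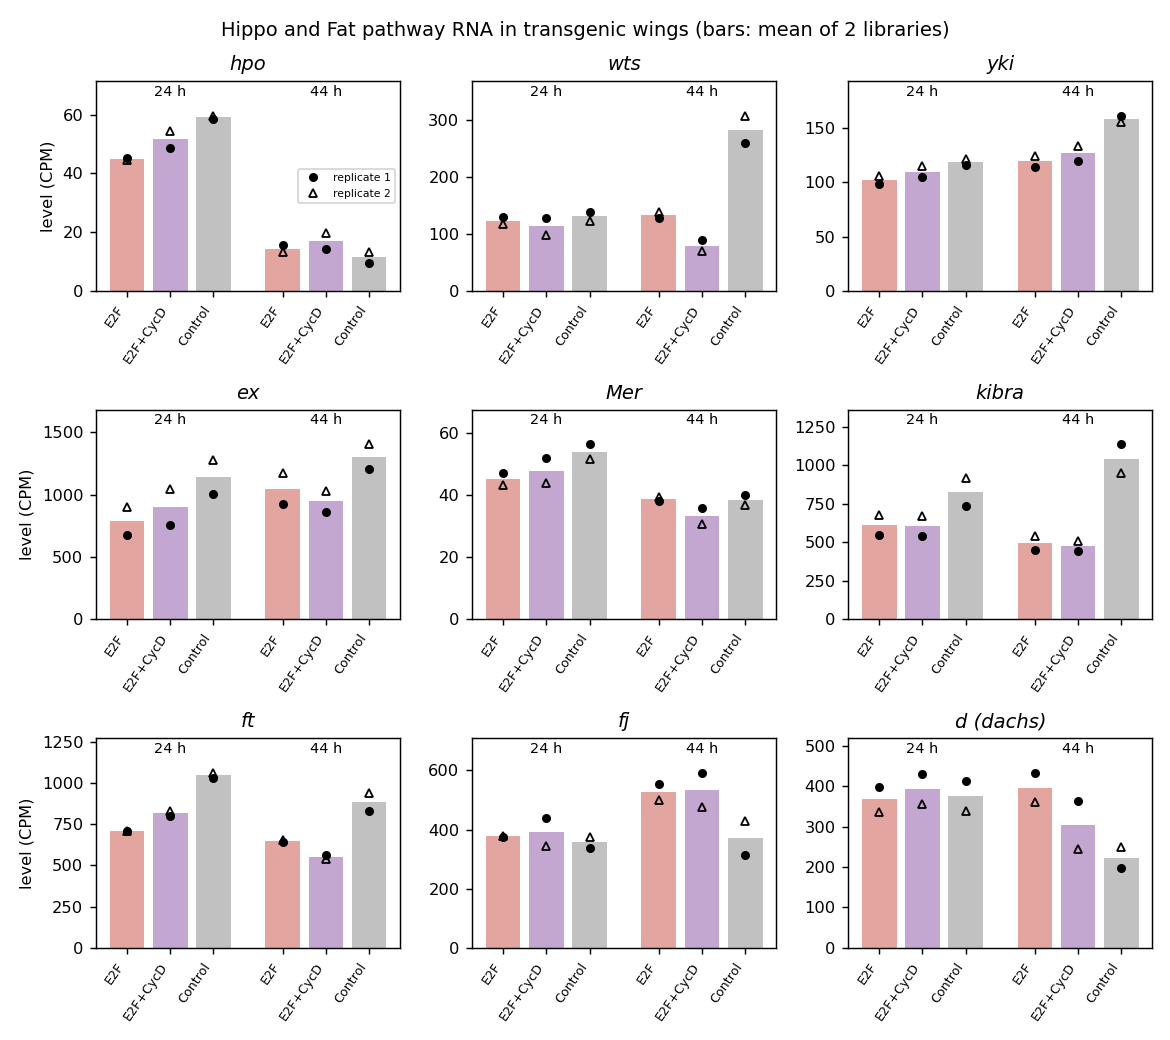
Levels in CPM (vertical axes, from 0) of the 9 members in E2F, E2F + CycD and control wings at 24 h and 44 h, with bars for the mean of 2 libraries and points for each library. The control libraries of 44 h stand above all others for *wts*, at 258 and 307 CPM, and below all others of 24 h and 44 h for *d* except 1 E2F + CycD library.

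The 2 genotypes were also compared directly, which differ in the levels of *E2f1* and *Dp* as well as in *CycD*. At 24 h no member passed and none changed by more than 1, against 10.8% and 4.92% of all genes, and by edgeR no member had an unadjusted p under 0.05 (0 of 9), with 0 called by DESeq2. At 44 h *wts* was lower in E2F + CycD than in E2F wings by a log2 fold change of -0.74 (SE 0.17, adjusted p = 0.00921), or 0.599 of the E2F level. It was the only member to pass, against 25.4% of all genes, and none changed by more than 1, against 11.6%. The call was lost without E2F replicate 2 (-0.68, adjusted p = 0.0595) or E2F + CycD replicate 2 (-0.56, adjusted p = 0.103), and with library totals alone (-0.37, adjusted p = 0.12). For *kibra*, which fell in both genotypes, the difference was -0.07. Its approximate 95% interval, taken from the SE by a normal curve and thus too narrow, was -0.44 to 0.30.

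An interaction term asked whether each genotype acted on the members differently at the 2 stages. For *wts* the effect of E2F was more negative at 44 h than at 24 h by -1.005 (SE 0.24, adjusted p = 0.0146) and that of E2F + CycD by -1.63 (SE 0.24, adjusted p = 0.00066). At 24 h *wts* had 129 and 117 CPM in E2F wings and 128 and 98.3 CPM in E2F + CycD wings, against 139 and 122 CPM in control wings, and all 3 groups overlapped. The E2F interaction was lost without 1 of 4 libraries in turn, control replicate 2 or E2F replicate 1 of 24 h and control replicate 2 or E2F replicate 1 of 44 h (adjusted p = 0.0624 to 0.0762), and with library totals alone (-0.56, adjusted p = 0.114). The E2F + CycD interaction passed in every alternative, but was -0.80 with library totals alone (adjusted p = 0.0168). *wts* was the only member to pass in either, and it changed by more than 1 in both, against 18.7% and 13.7% of all genes for E2F and 24.4% and 17.7% for E2F + CycD. *hpo* and *d* had interactions for E2F of 0.73 (adjusted p = 0.0777) and 0.86 (adjusted p = 0.0703), and without control replicate 2 of 44 h these passed (1.14, adjusted p = 0.0163, and 1.21, adjusted p = 0.0204), as did *fj* (0.84, adjusted p = 0.0332). For E2F + CycD *hpo* was at 0.76 (adjusted p = 0.0561), and it passed without control replicate 2 or E2F + CycD replicate 1 of 44 h (adjusted p = 0.00695 and 0.0213), as *fj* did without that control library (adjusted p = 0.0201).

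The passage of time in control wings was compared on its own. At 44 h against 24 h in control wings *wts* rose by 1.11 (SE 0.17, adjusted p = 0.000197), 2.16-fold, and *yki* by 0.42 (SE 0.12, adjusted p = 0.0126). *hpo* fell by 2.37 (SE 0.20, adjusted p = 1.13e-06), *d* by 0.75 (SE 0.21, adjusted p = 0.011) and *Mer* by 0.49 (SE 0.14, adjusted p = 0.0104). These 5 of 9 members, 2 up and 3 down, passed where 53.9% of all genes did, and *hpo* and *wts* changed by more than 1 where 36.9% did. *hpo* passed in every alternative. *yki* was lost without any 1 of the 4 libraries (adjusted p = 0.0509 to 0.0924), *Mer* without 24 h replicate 1 (adjusted p = 0.0686) and *d* without either first replicate (adjusted p = 0.0847 and 0.0701). *ft*, at -0.24, passed without 44 h replicate 2 (-0.43, adjusted p = 0.0328). With library totals alone 8 members passed, all of them down, the median gene moved by -0.95, *wts* was at 0.15 (adjusted p = 0.429) and *yki* turned to -0.54, or 1.13 and 0.44 relative to the median gene.

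The control and wild-type series cover the same nominal interval in libraries that share no sample, so the change in each can be set side by side. The hours of the control wings are calculated equivalents, and whether the 2 sets were matched in stage was not tested. *hpo* fell by 2.37 in control wings and by 1.90 in wild-type wings, and *yki* was higher at 44 h in both, by 0.42 and 0.68, each past the test. The control call of *yki* was lost without any 1 library compared. With library totals alone *yki* was at -0.54 in control and 0.03 in wild-type wings. *wts* went in opposite directions, 1.11 in control wings and -0.40 in wild-type wings (SE 0.24, adjusted p = 0.195). The difference of the 2 changes was tested in a joint fit of all 24 libraries (9958 genes), a comparison added after the counts had been seen. It was 1.62 for *wts* (SE 0.32, adjusted p = 0.00442), past the test in every alternative, and no other member passed (next *kibra*, 0.54, unadjusted p = 0.121). This 1 of 9 also changed by more than 1, where 6.67% of all genes passed and 6.05% did so by more than 1. With all libraries scaled together *wts* had 293 and 346 CPM in control wings at 44 h, against 71.7 and 74.1 CPM in wild-type wings, and 157 and 139 CPM against 119.7 and 86.6 CPM at 24 h.

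All 9 members had a higher mean level in control than in wild-type wings at both stages on this joint scale, from 1.08-fold for *hpo* at 44 h to 8.56-fold for *ex* at 24 h. For *hpo* at 44 h the libraries overlapped, at 10.96 and 14.94 CPM in control and 11.2 and 12.7 CPM in wild-type wings. The share of all genes that were higher in control wings was not counted. Over 9752 genes the log2 ratio of control to wild type rose with exon length (rank correlation 0.472 at 24 h and 0.335 at 44 h). The genes in the top decile of exon length had median log2 ratios of 1.16 and 1.13, and those in the lowest decile -0.34 and -0.08. Genotype, temperature steps, depth and library preparation differ together between these sets and cannot be told apart, and no test of level between them was made.

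**Figure D5:**
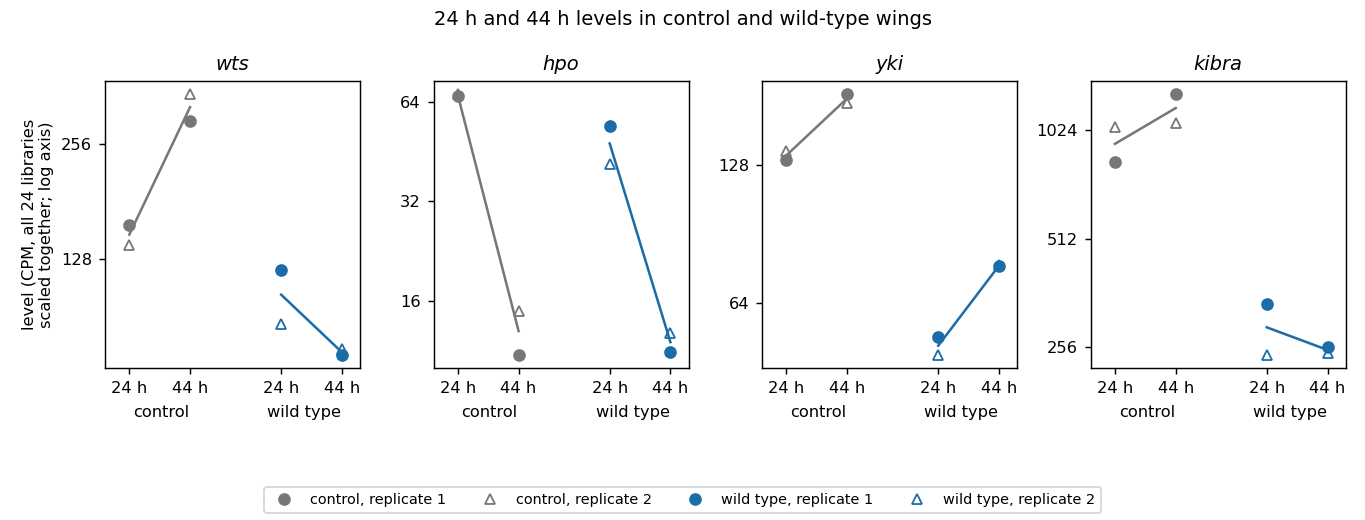
Levels in CPM with all 24 libraries scaled together (vertical axes, log scale) of *wts*, *hpo*, *yki* and *kibra* at 24 h and 44 h, with control wings in grey on the left and wild-type wings in blue on the right of each panel, circles and triangles for replicates 1 and 2 and lines through the means. With TMM scaling *hpo* and *yki* move the same way in both, while *wts* reaches 293 and 346 CPM in control wings at 44 h against 71.7 and 74.1 CPM in wild-type wings.

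The other pathway genes in transgenic wings were counted on the same 40 tested genes. In E2F wings 8 passed at 24 h (1 up, 7 down) and 21 at 44 h (11 up, 10 down), against 23.7% and 40.2% of all genes, and the list medians were -0.13 and -0.07 on the log2 scale. In E2F + CycD wings 5 passed at 24 h (2 up, 3 down) and 23 at 44 h (10 up, 13 down), against 14.3% and 51.2% of all genes, with medians of -0.08 and -0.13. *CycE*, a target of both Yki and E2F, rose in E2F wings by 3.10 at 24 h (SE 0.18, adjusted p = 2.93e-07) and 3.15 at 44 h (SE 0.19, adjusted p = 4.23e-07), and in E2F + CycD wings by 3.72 and 5.18. The other 4 tested Yki targets, *Diap1*, *Myc*, *dally* and *dlp*, were all lower in E2F wings at 24 h and passed. At 44 h they went in both directions in E2F + CycD wings, with *Diap1*, the inhibitor of apoptosis, at -1.51 (SE 0.14, adjusted p = 3.65e-06), and *Myc* and *dlp* up. Among the regulators, *aPKC*, the apical polarity kinase, was lower at 44 h under both, at -1.28 with E2F (adjusted p = 1.46e-05) and -1.54 with E2F + CycD (adjusted p = 2.08e-06). *app*, which encodes an enzyme of the Fat branch, rose in E2F wings by 1.36 (adjusted p = 1.21e-05), and *crb* by 1.31 (adjusted p = 0.000478). *Rassf* rose in E2F + CycD wings by 1.33 (adjusted p = 0.000186) and *l(2)gl* by 1.06, while *Wbp2* was at -1.26 (adjusted p = 8.59e-06), though at -0.28 and not past the test with library totals alone. In control wings at 44 h against 24 h *Rassf* fell by 2.399, *dlp* by 2.46 and *Dlish*, a partner of Dachs, by 1.91, and *Hipk* and *Wbp2* rose by 1.04 and 1.45, of which *Hipk* missed the threshold with library totals alone (0.08). Between the 2 genotypes at 44 h *tsh*, a Yki partner, was higher in E2F + CycD wings by 2.65 (adjusted p = 0.0168), a call lost without E2F replicate 1 or E2F + CycD replicate 2 (adjusted p = 0.116 and 0.0815). *Myc* was higher by 2.04 and *Tgi* lower, at -1.72.

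The gene most alike to each member over the 12 group means was sought among 9957 others by Pearson's r of log2 CPM, given as a description since groups share libraries, scaling and the difference between the 2 sets. *hpo* was most alike to *Phs* (r = 0.983, and 0.992 over the 6 wild-type stages alone) and *kibra* to *Ank2* (0.989 and 0.993). *wts* was most alike to *CG10737* (0.965 and 0.847), *yki* to *Hr96* (0.989 and 0.911), *ex* to *hyd* (0.990 and 0.957), *Mer* to *salm* (0.978 and 0.829), *fj* to *Sec31* (0.963 and 0.890) and *d* to *Trpm* (0.988 and 0.917). *ft* was most alike to *lncRNA:CR46032* (0.990), but over the wild-type stages alone that r was 0.205.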

How the data were processed

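Messenger RNA of whole wings, female per the labels, was measured in 24 stranded libraries, 2 per group. The authors aligned reads with STAR to dm6 and deposited raw HTSeq counts per gene, with replicates kept apart. Versions, annotation and strand setting are not given in the sources used here. Reads outside genes were listed on lines that name no gene (6.335% to 15.24% as no feature and 0.8716% to 1.183% as ambiguous, of reads with a unique place) and stayed out of library sizes and tests.

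Counts were fitted with edgeR 4.0.16 in R 4.3.3 (quasi-likelihood F-test, TMM scaling, filterByExpr by group with a minimum count of 10 and a total of 15, no replicate block), separately for wild-type and transgenic libraries, with Benjamini-Hochberg adjustment over all genes. The threshold was 0.05 on the adjusted p, with a change over 1 on the log2 scale where stated. The fit was tested on simulated data. DESeq2 1.42.0, RLE scaling, library totals, no count filter, a replicate block, only the compared groups, and each library left out were tried. Depth ran from 1900774 to 16332737 reads on genes, which limits the low genes *hpo* and *Mer* most.

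Members and lists were chosen with earlier results of these data known. From the other pathway lists, up to 3 genes per direction and comparison were named by largest change over 1, given 50 or more reads per library in the higher group, besides genes of a list with 5 or fewer, named after their values were seen. The comparison of control with wild-type changes was added after the counts were seen. Of 17559 identifiers, 17253 matched a symbol. Marker lists followed fixed symbols, of which *ap* and *btl* were not matched.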

Additional observations from a re-analysis of the deposited data

Results flagged for a closer look

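The effect of a genotype on *wts* differed between stages by a test of the difference itself. The log2 effect of E2F was more negative at 44 h than at 24 h by -1.005 (SE 0.24, adjusted p = 0.0146, edgeR), and that of E2F + CycD by -1.63 (SE 0.24, adjusted p = 0.00066). With library totals as the only scaling they were -0.56 (adjusted p = 0.114) and -0.80 (adjusted p = 0.0168), and the E2F value also missed the threshold without 1 of 4 libraries in turn (adjusted p = 0.0624 to 0.0762). Both tests use the same control libraries. The change of *wts* at 44 h against 24 h also differed between sets, by 1.62 in control minus wild-type wings (SE 0.32, adjusted p = 0.00442), with genotype, temperature steps and library set changing together, which cannot be told apart. This last comparison was added after the counts had been seen.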

How the results depend on the processing

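Of 40 member results past the test, 11 were past it in the same direction under every alternative, 20 under every change other than a left-out library and 16 under every left-out library. Library totals as the only scaling ended or reversed 16 calls, fitting only the compared groups 6, no count filter 5, the replicate block 2, and RLE scaling and DESeq2 1 each. The reversals, all with library totals, were at 44 h *ft* (0.161) and *yki* (0.202) for E2F, *ft* (0.300) and *yki* (0.666) for E2F + CycD, and *yki* in control wings at 44 h against 24 h (-0.542). Apart from library totals, which differ by construction in how the typical gene is placed, the cause was not tested. Each group has 2 libraries, and *hpo* had 40 reads in a 6 h library, which limits the precision there.

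With library totals, the members past the test numbered 5 at 6 h against L3, 4 at 18 h against 6 h, 0 at 24 h against 18 h, 3 at 36 h against 24 h, 6 at 44 h against 24 h, 0 for E2F at 24 h, 2 between the genotypes at 44 h, 8 in control wings over time, 4 (without *wts*) for the E2F interaction and 7 for the E2F + CycD interaction. That scaling also moved the median of all genes, from -0.95 in control wings over time to 0.83 for the E2F + CycD interaction. These counts therefore do not single out the members. The genes past the test were then 4608 against 2352 for the E2F + CycD interaction and 1291 against 664 for the control minus wild-type change. With only the compared groups, 3425 genes against 2283 passed for E2F at 24 h, and the members were 4 there, 1 for E2F + CycD at 24 h, 3 in each genotype at 44 h and 3 for the E2F interaction. At 24 h DESeq2 gave 2 members for E2F and 1 for E2F + CycD, and it gave 3 and 2 for the E2F and E2F + CycD interactions. Without the count filter there were 2, 3 and 2 members in E2F wings at 24 h and for the 2 interactions, and with RLE scaling 2 for each interaction.

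Replicate numbers share only a label: the correlation of same-numbered deviations between groups ran from -0.302 to 0.332 in wild-type and -0.154 to 0.411 in transgenic libraries. With the replicate block the members were 2 at 36 h against 24 h, 2 in E2F wings at 24 h, 2 for the E2F interaction, 3 for the E2F + CycD interaction, and 7 at 44 h against 6 for E2F + CycD. There *ex* passed (-0.46, adjusted p = 0.0131), as it did for E2F at 24 h (-0.54, adjusted p = 0.014). Replicate 2 of *ex* was above replicate 1 in all 6 transgenic groups, while *fj* was lost for E2F at 44 h (adjusted p = 0.0582).

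Leaving out 1 library at a time gave these ranges of members past the test: 3 to 7 over all stages, 1 to 2 at 6 h against L3, 2 to 3 at 18 h, 0 to 1 at 24 h, 0 to 2 at 36 h, 1 to 3 at 44 h against 36 h, 2 to 2 at 44 h against 24 h, 0 to 0 for E2F at 24 h and 2 to 4 at 44 h, 3 to 6 for E2F + CycD at 44 h, 0 to 1 between genotypes at 44 h, 2 to 5 in control wings, and 0 to 3 and 1 to 3 for the E2F and E2F + CycD interactions. Genes past the test ran from 6548 to 7741 over all stages, 2626 to 3924 at 6 h, 2765 to 3723 at 18 h, 323 to 944 at 24 h, 2090 to 2578 at 36 h, 1429 to 1919 at 44 h against 36 h and 2950 to 3389 at 44 h against 24 h. In transgenic wings they ran from 1169 to 1351 in E2F and 666 to 1003 in E2F + CycD wings at 24 h, 2693 to 3611 and 3919 to 4438 at 44 h, 406 to 639 and 1232 to 1811 between genotypes at 24 h and 44 h, 4235 to 4870 in control wings, 1069 to 1913 and 1599 to 2566 for the interactions, and 287 to 724 for the control minus wild-type change.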

Other observations

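*Dref*, which encodes the factor that binds the DRE letters, was looked up after the values of *wts* and *kibra* had been seen. It had 69.4 and 68.8 CPM in E2F wings and 135 and 127 CPM in E2F + CycD wings at 24 h, against 28.3 and 29.0 CPM in control wings. At 44 h it had 25.5 and 28.9 CPM in E2F wings and 71.0 and 88.2 CPM in E2F + CycD wings, against 35.8 and 33.4 CPM in control wings. The log2 fold changes were 1.27 (adjusted p = 3.23e-05) and 2.19 (adjusted p = 7.01e-07) at 24 h, and -0.35 (adjusted p = 0.0669) and 1.20 (adjusted p = 2.31e-05) at 44 h (edgeR). *Dref* RNA was thus higher in E2F + CycD wings at both stages with no overlap, and in E2F wings at 24 h. At 24 h *wts* was at -0.09 in E2F and -0.21 in E2F + CycD wings, and *kibra* at -0.44 in both, none past the test. A part of *Dref* in the levels of *wts* and *kibra* was not tested.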
